A study of Mus musculus with 4 samples.

Results

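The heat shock proteins and molecular chaperones described here are 10 genes, taken by their symbols from the 24421 genes in the count table: Hspa1a, Hspa1b, Hspb1, Hsph1, Dnajb1, Hspa8, Hspd1, Hspe1, Hsf1 and Hsp90aa1. They were chosen on measured values, since Hspa1a stood among the genes that differed most upward between both Ddx6 knockout libraries and the wild type of the same age. For that reason the differences of these genes from that wild type are given as a description, with no p-value. All 10 passed the filter on low counts, which required 10 counts or more in any library and kept 14393 genes.

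The study sequenced polyadenylated RNA of whole ICR mouse embryos, to characterise at the transcript level embryos that lack Ddx6, an RNA helicase of mRNA decay and translational repression. There was 1 library of wild-type embryos at embryonic day 7.5 (E7.5 WT), 1 of wild-type embryos at embryonic day 8.5 (E8.5 WT), and 2 of Ddx6 -/- embryos at embryonic day 8.5 (KO1 and KO2). According to the study's text, the null allele was made from a floxed allele with CAG-Cre, which acts in all tissues, and KO embryos came from heterozygous parents. The KO libraries were pools of embryos, and their stages differed: KO1 combined an embryo from before head-fold formation with one from after it, and KO2 held only embryos from before it. Each wild-type stage had 1 library, so the spread of KO1 and KO2 was the only replicate error at hand, and age and library cannot be told apart within the wild type.

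Molecular chaperones bind unfolded or partly folded proteins and help them to fold, to refold after damage or to be degraded. Under heat or other protein-damaging stress, the transcription factor HSF1 forms trimers that bind heat shock elements, which are repeats of a short unit in alternating orientation, and induces the genes of Hsp70, Hsp40, Hsp110, the inducible Hsp90 and small heat shock proteins. Other members of the same families, such as Hspa8, are made at high levels in unstressed cells, and early mouse embryos are known to express several chaperones without any applied stress.

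The library totals ran from 8198402 counts (KO1) to 12562640 (E8.5 WT), with reads in 16511 to 17112 genes. Ddx6 had 2943 reads in E7.5 WT versus 5715 in E8.5 WT, with 706 in KO1 and 929 in KO2. Its level was lower than in E8.5 WT by a factor of 5.53 in KO1 (95% interval 5.11 to 5.99) and of 6.10 in KO2 (5.69 to 6.54). Reads remained in both KO libraries, and a count per gene does not show from which exons they came. The 8 markers of the embryo list, of epiblast, mesoderm and endoderm, had counts in every library. Their summed level was 1036 CPM (counts scaled to a common library total) in E7.5 WT versus 348 in E8.5 WT, with 384 in KO1 and 948 in KO2. Single markers did not all follow the sum. In the same order Sox2 had 51.0, 108, 56.3 and 96.3 CPM, highest in E8.5 WT, and Tbx6 had 29.5, 17.7, 25.6 and 7.47 CPM, lowest in KO2.

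The sequences just before the start sites of the 3 genes that differed most are shown first, because these genes belong to families that HSF1 induces. Hspa1a and Hspa1b encode the stress-inducible Hsp70 proteins and lie close to each other on the minus strand of chromosome 17 (GRCm38, the assembly of mm10), each as 1 exon without introns, Hspa1a from 34969190 to 34972156 and Hspa1b from 34956436 to 34959238. Hspb1 encodes a small heat shock protein that holds unfolded proteins without using ATP and lies on the plus strand of chromosome 5, from 135887919 to 135889563. The stretches are the 250 bases upstream of the start site, read along the gene's strand from the promoter sequences of RefSeq (GRCm38.p6), and capitals mark each pair of alternating heat shock units.
Hspa1a, chr17:34972157-34972406, minus strand: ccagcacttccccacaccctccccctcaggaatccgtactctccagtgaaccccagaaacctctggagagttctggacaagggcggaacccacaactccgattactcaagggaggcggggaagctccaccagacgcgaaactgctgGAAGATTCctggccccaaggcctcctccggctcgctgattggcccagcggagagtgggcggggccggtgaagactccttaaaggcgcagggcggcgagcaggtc
Hspa1b, chr17:34959239-34959488, minus strand: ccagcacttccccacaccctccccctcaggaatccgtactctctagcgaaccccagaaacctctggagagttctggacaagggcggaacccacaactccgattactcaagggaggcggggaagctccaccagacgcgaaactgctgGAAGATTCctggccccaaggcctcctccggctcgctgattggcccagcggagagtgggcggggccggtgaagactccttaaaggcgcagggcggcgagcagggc
Hspb1, chr5:135887669-135887918, plus strand: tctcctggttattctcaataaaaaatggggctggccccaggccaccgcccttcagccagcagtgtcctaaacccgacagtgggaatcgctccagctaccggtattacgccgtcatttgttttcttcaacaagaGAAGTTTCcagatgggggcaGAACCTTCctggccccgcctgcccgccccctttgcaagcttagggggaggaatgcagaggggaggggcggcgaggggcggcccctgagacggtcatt
The Hspa1a and Hspa1b stretches differed at 3 of 250 bases (98.8% identical), and both held the same pair, GAAGATTC, from 104 to 97 bases before the start site. Hspb1 held a pair from 117 to 110 bases before its start, GAAGTTTC, and another from 97 to 90 bases before it, GAACCTTC.

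A pair of units was searched on both strands as GAANNTTC or TTCNNGAA in windows from 250 bases before to 50 after the start site, and 15.1% of 32851 promoters held at least 1. A run of 3 units, GAANNTTCNNGAA or TTCNNGAANNTTC, was rarer and was found in 198 promoters (0.603%). Every run of 3 contains overlapping pairs. RefSeq promoters were at hand for 7 of the 10 genes, those other than Hspa8, Hsf1 and Hsp90aa1. Of the 7, 6 held a pair (all but Dnajb1), and 3 held a run of 3 units, namely Hsph1, Hspd1 and Hspe1. These 7 genes had 10 windows, and a gene counted as holding a match when any of its windows did. Counted in that way, 17.0% of 27025 genes held a pair and 0.662% a run of 3. Hspd1 and Hspe1 encode the mitochondrial chaperonin Hsp60 and its lid Hsp10, and are transcribed away from each other on chromosome 1 from starts that overlap (Hspd1 from 55077835 to 55088243 on the minus strand, Hspe1 from 55088132 to 55091307 on the plus strand). The same 18 bases, shown in capitals on the Hspe1 strand with 10 bases on either side, lay upstream of the Hspe1 start. RefSeq has 2 starts for Hspd1. The 18 bases lay 127 to 144 bases upstream of one of them (55087932) and 167 to 184 bases downstream of the other (55088243, the annotated end of the gene given above), whose window held no match.
Hspe1 and Hspd1, capitals at chr1:55088059-55088076, plus strand: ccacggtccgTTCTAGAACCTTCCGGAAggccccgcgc
These letters are matches to a pattern and no measurement of HSF1 binding was used here.

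The levels of the 10 genes differed over a wide range. Per kilobase of annotated exon in E8.5 WT, the order was Hspd1 (474 CPM per kilobase), Hsp90aa1 (399), Hspa8 (350), Hspe1 (183), Hsph1 (51.0), Dnajb1 (25.7), Hsf1 (8.33), Hspb1 (4.26), Hspa1b (0.929) and Hspa1a (0.137). The mitochondrial, constitutive and Hsp90 genes were thus the most abundant. The 3 genes that stood out in the KO libraries were the 3 least abundant members in E8.5 WT. That library is the reference from which they stood out, so a low place in it is partly built in. The levels of these 3 may also be understated, because other annotated genes hold part of their sequence, as described below. Hsf1 shares none of its sequence in that way, so the order of Hspb1 and Hsf1 in E8.5 WT is uncertain. In each of the other libraries Hsf1 stood below Hspb1, at 10.6 against 20.5 CPM per kilobase in E7.5 WT and 10.2 against 37.9 in KO2. In E7.5 WT the most abundant was Hsp90aa1 at 809 CPM per kilobase, followed by Hspa8 at 563 and Hspd1 at 521. In KO1 and KO2, Hspa1a was again the lowest, at 1.24 and 1.63 CPM per kilobase.

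**Figure D1:**
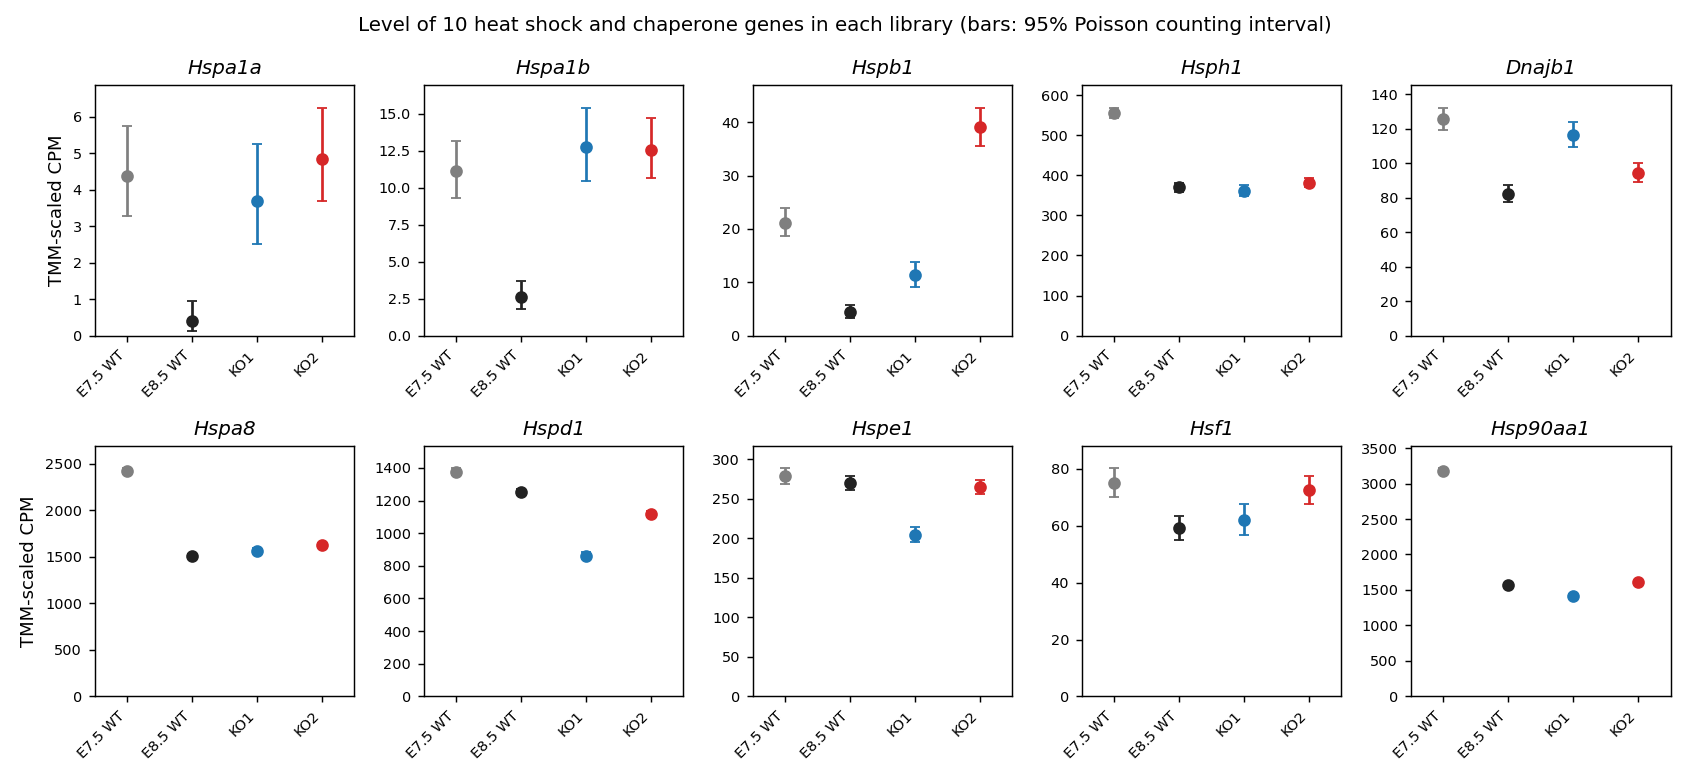
Level of each of the 10 genes in the wild-type libraries and the KO libraries, in CPM scaled by TMM factors, edgeR's trimmed mean of M-values, on a linear axis from 0 in each panel. Points are single libraries and bars are exact 95% Poisson intervals, which cover counting error only. Hspa1a, Hspa1b and Hspb1 were lowest in E8.5 WT, whereas Hsph1, Hspa8 and Hsp90aa1 had similar levels in E8.5 WT and both KO libraries and stood higher in E7.5 WT.

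The first comparison asked which of these genes differed between KO embryos and wild-type embryos of the same age. The study reports delayed development of KO embryos at this age, some of them like E7.5 controls in shape, so equal age is not equal stage. The part of stage in the differences was not tested. A gene was called when its log2 CPM differed by more than 1 in the same direction in both KO libraries. Hspa1a, Hspa1b and Hspb1 were called higher, which is 3 of 10, and 3.44% of all genes compared were called in that direction (495 of 14393). None of the 10 was called lower (1.79% of all genes, 257). Since Hspa1a was chosen on this contrast and the other genes with its result known, nothing is read from these shares. In bulk RNA of whole embryos, fewer cells of a type and less RNA per cell cannot be told apart.

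Hspa1a had 52 reads in E7.5 WT versus 5 in E8.5 WT, with 31 in KO1 and 59 in KO2, which was 4.37, 0.407, 3.69 and 4.84 CPM. Only E8.5 WT stood apart, and the KO libraries lay on either side of E7.5 WT. The level was 9.07-fold higher in KO1 (3.498 to 29.9) and 11.9-fold higher in KO2 (4.82 to 38.0) than in E8.5 WT. The intervals, which are exact Clopper-Pearson 95% intervals of the reads of 2 libraries and cover counting error only, were wide because of the 5 reads in E8.5 WT. The mean log2 CPM difference, with a prior count of 2 that draws low counts together, was 2.91 ± 0.27 (SD, n = 2), and Hspa1a stood 8th of 14393 genes by the smaller of its differences in KO1 and KO2.

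Hspa1b, the neighbouring copy, had 132 reads in E7.5 WT versus 32 in E8.5 WT, with 107 in KO1 and 153 in KO2 (11.1, 2.60, 12.7 and 12.6 CPM). Both KO libraries were above both wild-type libraries, which was true of 18.4% of all genes compared (2650) and of 1 of the 10 members. The ratio to E8.5 WT was 4.89 in KO1 (3.27 to 7.51) and 4.82 in KO2 (3.28 to 7.30), and the mean log2 CPM difference was 2.20 ± 0.015 (SD, n = 2). The KO libraries differed from E7.5 WT by 1.15-fold (0.881 to 1.49) and 1.13-fold (0.891 to 1.44), intervals that include 1. The place of Hspa1b above E7.5 WT was therefore not distinguishable from counting error.

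Hspb1 had 252 reads in E7.5 WT versus 54 in E8.5 WT, with 95 in KO1 and 476 in KO2 (21.2, 4.39, 11.3 and 39.1 CPM). Unlike the Hsp70 pair, it differed between the KO libraries, with KO1 between the wild-type stages and KO2 above both. The ratio to E8.5 WT was 2.57 in KO1 (1.82 to 3.67) and 8.89 in KO2 (6.70 to 12.01), a mean log2 CPM difference of 2.22 ± 1.25 (SD, n = 2). KO2 was 3.45-fold above KO1 (2.77 to 4.35), and Hspb1 was the only member whose log2 CPM was higher in KO2 than in KO1 by more than 1 (5.99% of all genes, 862). No member was lower in KO2 by more than 1 (4.89% of all genes, 704). The corresponding ratios of KO2 to KO1 were 1.31 for Hspa1a (0.835 to 2.096) and 0.985 for Hspa1b (0.765 to 1.27).

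Markers of cells outside the embryo proper also differed between the KO libraries. The summed level of 10 trophoblast markers was 353 CPM in E7.5 WT versus 202 in E8.5 WT, with 459 in KO1 and 942 in KO2. Hand1, which heart and lateral mesoderm also express, made up much of the first 3 of these sums, and without it the other 9 markers summed to 137, 20.3, 36.6 and 612 CPM in the same order. The sum of 6 decidual markers was 167, 19.7, 26.6 and 255 CPM in the same order, and that of 6 leukocyte markers 8.16, 1.95, 3.33 and 25.03 CPM. All of these sums, with or without Hand1, were, like Hspb1, lowest in E8.5 WT and highest in KO2. Single markers did not all peak in KO2. Among those compared, Elf5, Ascl2, Prl3c1 and Cd74 were highest in E7.5 WT, Hand1 in KO1 and the others in KO2. Elf5 had 795, 3, 3 and 10 reads, and Ascl2 had 358, 10, 11 and 54. In KO2 the trophoblast sum held 341 CPM of Prl3d1 and 115 CPM of Prl2c2. Prl3d1, a hormone gene of trophoblast giant cells, had 27, 1, 3 and 4156 reads, and Cyp11a1, a steroidogenic enzyme gene of these tissues, had 213, 5, 15 and 1213. Of the trophoblast list, 5 of 12 genes were at 0 in E8.5 WT, 4 in KO1, 2 in E7.5 WT and 1 in KO2. All 10 trophoblast markers compared were higher in KO2 than in E8.5 WT, and 7 of the 10 were higher in KO1. Of the decidual markers 6 of 6 and 3 of 6 were, and of the leukocyte markers 6 of 6 and 5 of 6. The part of these cells in the levels of Hspb1, Hspa1a and Hspa1b was not tested.

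Among the partners of Hsp70, Hsph1 encodes Hsp110, a nucleotide exchange factor that lets Hsp70 release its client. It had 6603 reads in E7.5 WT versus 4551 in E8.5 WT, with 3041 in KO1 and 4653 in KO2 (555, 370, 362 and 382 CPM). The KO libraries lay on either side of E8.5 WT, with ratios of 0.978 (0.934 to 1.02) and 1.03 (0.990 to 1.07), so no difference from E8.5 WT exceeded counting error. Dnajb1, an Hsp40 protein that delivers clients to Hsp70 and stimulates its ATPase, had 1494, 1012, 979 and 1151 reads (126, 82.3, 117 and 94.5 CPM). It was 1.42-fold higher in KO1 (1.30 to 1.55) and 1.15-fold higher in KO2 (1.05 to 1.25) than in E8.5 WT, and both KO libraries lay between the wild-type stages. With log2 CPM differences of 0.50 and 0.20, Dnajb1 was the member next below the threshold of 1, and Hspb1 in KO1, at 1.33, was the called value nearest above it.

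Hspa8 encodes Hsc70, the constitutive Hsp70 of the cytosol, which also uncoats clathrin vesicles. It had 28819 reads in E7.5 WT versus 18491 in E8.5 WT, with 13146 in KO1 and 19860 in KO2 (2423, 1505, 1565 and 1630 CPM). The KO libraries were 1.04-fold (1.02 to 1.06) and 1.08-fold (1.06 to 1.11) above E8.5 WT, and at this depth differences of a few percent exceed counting error but need not exceed the spread between embryos. The constitutive gene and the inducible pair thus differed in size of change: 0.09 ± 0.041 (SD, n = 2) for Hspa8 against 2.91 and 2.20 for Hspa1a and Hspa1b, as means of log2 CPM differences from E8.5 WT. Hsp90aa1, the inducible cytosolic Hsp90, had 37823, 19269, 11895 and 19588 reads (3180, 1568, 1416 and 1607 CPM). Its ratio to E8.5 WT was 0.903 in KO1 (0.883 to 0.924) and 1.03 in KO2 (1.005 to 1.05), on either side of 1.

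Hspd1 had 16360 reads in E7.5 WT versus 15400 in E8.5 WT, with 7245 in KO1 and 13596 in KO2 (1375, 1253, 863 and 1116 CPM). Its divergent neighbour Hspe1 had 3314, 3316, 1719 and 3224 reads (279, 270, 205 and 265 CPM). Both KO libraries were below both wild-type libraries for these mitochondrial chaperonin genes, as for 17.6% of all genes compared (2532), and the lower of the KO libraries was KO1 for both. Hspd1 was 1.45-fold lower than E8.5 WT in KO1 (1.41 to 1.49) and 1.12-fold lower in KO2 (1.10 to 1.15). Hspe1 was 1.32-fold lower in KO1 (1.24 to 1.40) and 1.02-fold lower in KO2 (0.971 to 1.07), where the interval includes 1. The mean log2 CPM differences, -0.35 ± 0.26 and -0.21 ± 0.26 (SD, n = 2), were of the size of the spread between the KO libraries.

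Hsf1, which encodes the transcription factor itself, had 893 reads in E7.5 WT versus 727 in E8.5 WT, with 521 in KO1 and 883 in KO2 (75.1, 59.2, 62.0 and 72.5 CPM). The KO libraries lay between the wild-type stages. The ratio to E8.5 WT was 1.05 in KO1 (0.935 to 1.18) and 1.22 in KO2 (1.11 to 1.35). The activity of HSF1 is set mainly after translation, by trimer formation and modification, which transcript counts do not measure.

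**Figure D2:**
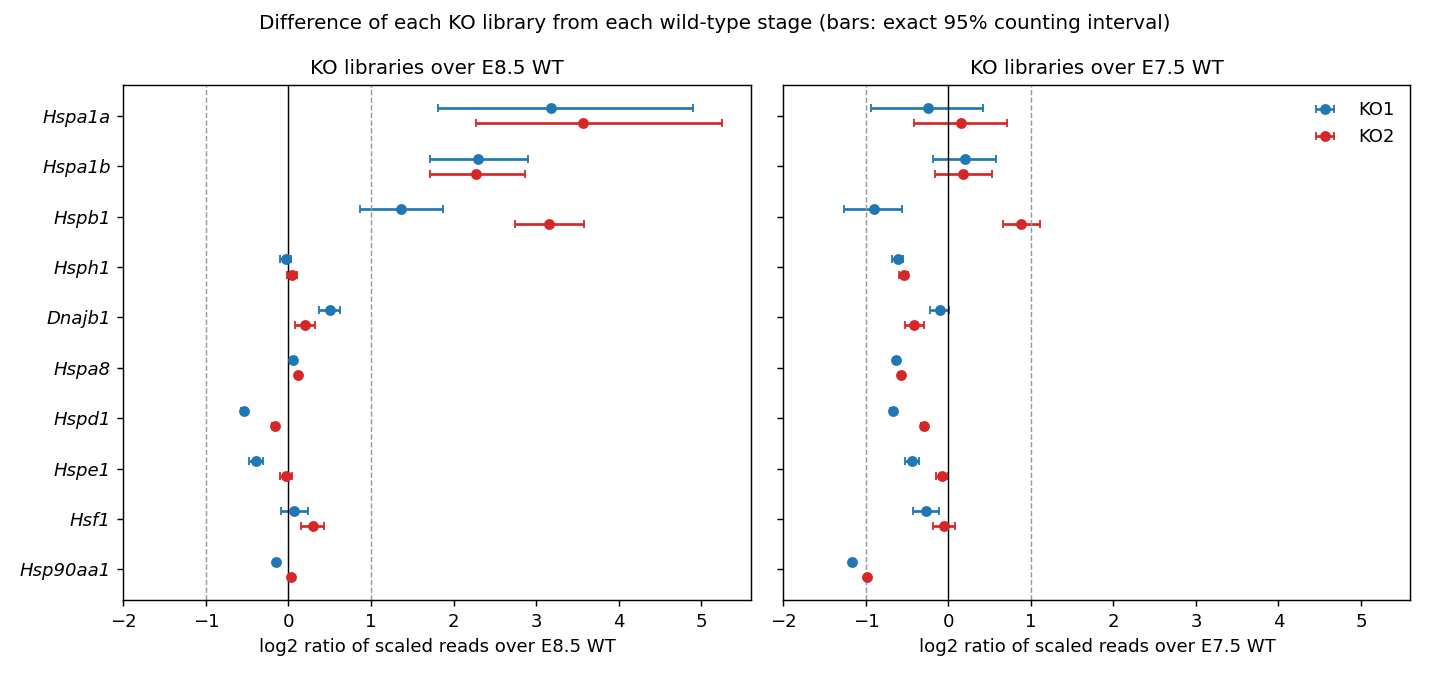
Log2 ratio of each gene in KO1 (blue) and KO2 (red) over E8.5 WT (left) and over E7.5 WT (right), from reads scaled by TMM library size without a prior count. Bars are exact 95% intervals of the reads (counting error only) and dashed lines mark -1 and 1. Over E8.5 WT, Hspa1a, Hspa1b and Hspb1 lay above 1 in both libraries, and over E7.5 WT no gene did.

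The second comparison set the KO libraries against the younger wild type, and shares the KO libraries with the first. None of the 10 genes was called higher in both KO libraries than in E7.5 WT (6.91% of all genes, 995) and none lower (2.7% of all genes, 389). Hspa1a was 0.844-fold E7.5 WT in KO1 (0.523 to 1.34) and 1.11-fold in KO2 (0.750 to 1.64), and its mean log2 CPM difference was -0.05 ± 0.27 (SD, n = 2). Hspb1 was 1.87-fold lower in KO1 (1.47 to 2.40) and 1.84-fold higher in KO2 (1.58 to 2.16), so its KO libraries lay on opposite sides of E7.5 WT. Hsp90aa1 was 2.24-fold lower in KO1 (2.20 to 2.29) and 1.98-fold lower in KO2 (1.94 to 2.01), with log2 CPM differences of -1.17 and -0.98, so that KO2 fell just short of the threshold. Hspa8 was 1.55-fold lower in KO1 (1.52 to 1.58) and 1.49-fold lower in KO2 (1.46 to 1.51), and Hsph1 1.53-fold (1.47 to 1.60) and 1.45-fold (1.40 to 1.51) lower.

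The third comparison was between the wild-type stages. All 10 genes had a lower level in E8.5 WT than in E7.5 WT, and 7327 of 14393 genes did. Of the 10, 4 were lower by more than 1 on the log2 CPM scale, namely Hspa1a, Hspa1b, Hspb1 and Hsp90aa1 (7.82% of all genes, 1125), and none was higher by more than 1 (12.2% of all genes, 1759). E7.5 WT was above E8.5 WT by 10.7-fold for Hspa1a (4.32 to 34.5), 4.26-fold for Hspa1b (2.88 to 6.48), 4.82-fold for Hspb1 (3.58 to 6.60) and 2.03-fold for Hsp90aa1 (1.99 to 2.06). For Hsph1, Dnajb1 and Hspa8 the ratios were 1.499 (1.44 to 1.56), 1.53 (1.41 to 1.65) and 1.61 (1.58 to 1.64). Hspe1 was the closest to equal, at 1.03 (0.984 to 1.08). The genes fell into different patterns over the 4 libraries: Hspa1a and Hspa1b in the KO libraries were at the level of E7.5 WT, while Hsph1, Hspa8 and Hsp90aa1 were at or near the level of E8.5 WT. The difference of the 3 called genes from E8.5 WT rests on that 1 library, and whether another E8.5 WT library would be as low was not measured.

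Reads of several of these genes can be hard to assign, because annotated relatives hold the same sequence. Of all windows of 50 bases along the Hspa1a transcript, 66.3% also occurred in another annotated gene, 58.8% in Hspa1b, and of those along Hspa1b 62.3% occurred in Hspa1a. With windows of 100 bases these shares were 56.5% for Hspa1a and 49.9% for Hspa1b. The pseudogene Hsp25-ps1 held nearly all of the shared windows of Hspb1, of which 50.1% were shared at 50 bases and 44.0% at 100. For Hsp90aa1, Hspd1, Hspa8 and Hspe1 the shares at 50 bases were 47.5%, 42.1%, 39.4% and 22.8%, held among others by the pseudogenes or predicted genes Gm12346, Hspd1-ps3, Gm15459 and AC117239.2. Hsph1 and Hsf1 had none, and Dnajb1 0.412%. The settings listed for the counting name no option to keep reads with several positions, and the read length is not given in the sources used here, so the counts of Hspa1a, Hspa1b and Hspb1 are uncertain as absolute levels and as shares between copies.

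Because their split depends on the assignment, Hspa1a and Hspa1b were also summed, an analysis added after the data were seen. Summing does not restore any reads left out because they fit both copies. The sum was 184 reads in E7.5 WT versus 37 in E8.5 WT, with 138 in KO1 and 212 in KO2 (15.5, 3.01, 16.4 and 17.4 CPM). The pair was 5.46-fold higher in KO1 (3.77 to 8.07) and 5.78-fold higher in KO2 (4.06 to 8.43) than in E8.5 WT, and the KO libraries agreed within counting error (ratio 1.06, 0.850 to 1.32). Hspa1a made up 28.3%, 13.5%, 22.5% and 27.8% of the pair's reads in the same order. The annotated gene Gm20481 overlaps Hspa1a on the opposite strand, and counting was strand-specific. Small nucleolar RNA genes lie within Hspa8 on the same strand.

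**Figure D3:**
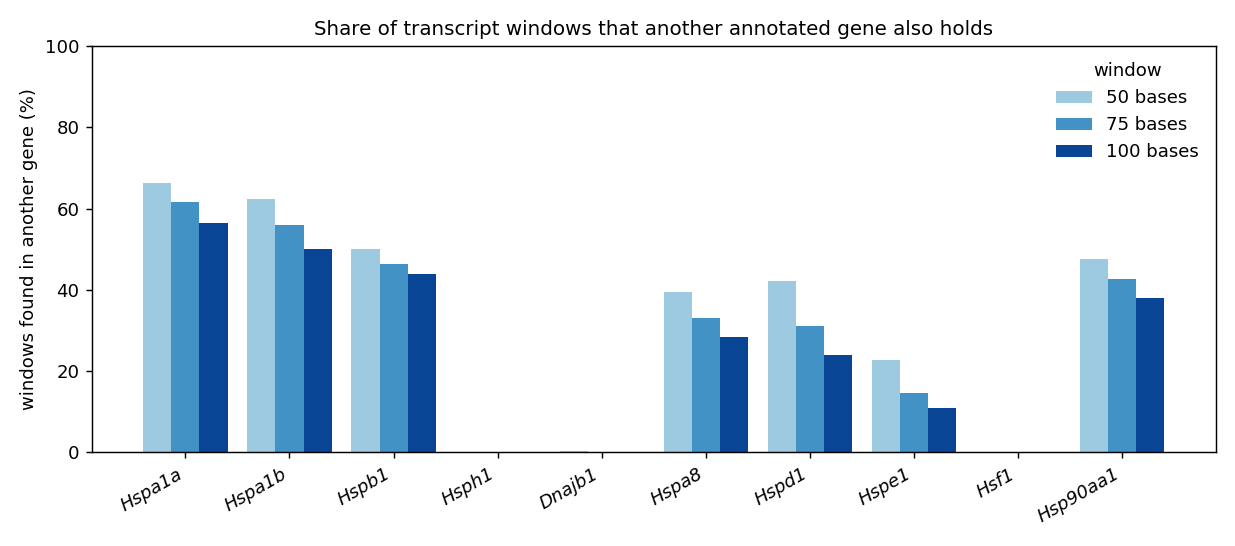
Share of all windows of 50, 75 and 100 bases along the annotated transcripts of each gene that also occur, letter for letter, in a transcript of another annotated gene (GENCODE M21, GRCm38), in percent. Hspa1a, Hspa1b, Hspb1 and Hsp90aa1 had the highest shares, and Hsph1 and Hsf1 had none at any window.

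The rest of the chaperone network was described from 10 lists of families and functions with 148 genes, of which 135 were compared, 125 of them not among the 10. Of the 125, 3 were called higher than E8.5 WT in both KO libraries, near the 3.44% of all genes, and none was called lower. The 3 were Dnajb13, a DNAJ protein of cilia and sperm flagella (7 reads in E8.5 WT, 13 in KO1, 19 in KO2), Ddit3, the stress transcription factor CHOP (20, 38 and 45), and Ubb, a polyubiquitin gene that heat induces (65, 105 and 241). Of these, Ubb differed most, by 1.21 and 1.87 in log2 CPM, and its level in E7.5 WT was 19.8 CPM, with 5.29 in E8.5 WT, 12.5 in KO1 and also 19.8 in KO2. The median log2 CPM difference over the 125 was -0.05 in KO1 and -0.03 in KO2, and over all genes -0.01 and 0.00.

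By family, members included, the median log2 CPM differences from E8.5 WT (KO1 first) were 0.02 and 0.01 over 14 Hsp70 genes, -0.05 and 0.01 over 44 Hsp40 genes, and -0.12 and 0.04 over 4 Hsp90 genes. In the Hsp70 family the highest after Hspa1a and Hspa1b was Hspa2, a testis-rich Hsp70, at 0.77 and 0.85, and the lowest was Hspa14, at -0.36 and -0.44. Hsp90ab1, the constitutive Hsp90 and the gene of this family with the most reads, had 87461 reads in E7.5 WT versus 63979 in E8.5 WT, with 40965 in KO1 and 65851 in KO2, with differences of -0.09 and 0.05. As for Hspa8, the constitutive Hsp70, its level in E8.5 WT lay close to those of the KO libraries and below that of E7.5 WT. The 8 small heat shock protein genes compared had medians of 0.41 and 0.40. Among them Hspb8, a partner of Bag3 in selective autophagy, had 274, 90, 101 and 296 reads and was higher by 0.70 and 1.71, with the order of libraries that Hspb1 also had. Cryaa, the lens alpha-crystallin, had 6, 0, 1 and 10 reads, at which depth its level in E8.5 WT and KO1 was at or under the floor of 3 counts. Other genes of this list were lower in the KO libraries than in E8.5 WT. The lowest were Hspb2, with 5, 20, 8 and 8 reads and differences of -0.67 and -1.11, and Hspb11 (-0.05 and -0.31).

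Of the heat-inducible list, which holds 9 of the 10 members, 24 genes were compared, with medians of 0.03 and 0.10. Besides Hspa1a, Hspa1b and Hspb1 only Ubb was called. Bag3, a cochaperone that HSF1 induces, had 1128 reads in E7.5 WT versus 635 in E8.5 WT, with 698 in KO1 and 1076 in KO2, with differences of 0.68 and 0.77, and the lowest of the list was Dnajb4, at -0.18 and -0.86. The 22 cochaperones had medians of -0.15 and 0.00, from Ppid, a cyclophilin that binds Hsp90 (-0.77 and -0.33), to Bag3 and Unc45a, a myosin chaperone (0.50 and 0.72). Only 3 of 8 genes of the heat shock factor list were compared. Their medians were 0.05 and 0.09, and Hsf2 had differences of -0.17 and -0.07.

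The 14 genes of the cytosolic chaperonin TRiC and its partner prefoldin, which fold actin and tubulin, had median differences of -0.27 (KO1) and -0.12 (KO2). All 8 TRiC subunits were below both wild-type libraries in both KO libraries (17.6% of all genes were). Tcp1, a TRiC subunit, had levels of 851, 732, 587 and 618 CPM, and Cct5, another, 1095, 721, 564 and 627 CPM. The highest of the list were Pfdn4 and Pfdn6, with mean differences of 0.14 and 0.11. The mitochondrial list, which holds Hspd1 and Hspe1, had medians of -0.20 and -0.03 over 15 genes, from Hscb, an iron-sulphur cluster cochaperone (-0.36 and -0.58), to Clpb (0.02 and 0.10). The 19 genes of the endoplasmic reticulum had medians of 0.04 and 0.00. Their lowest was Hsp90b1, the Hsp90 of this compartment (-0.23 and -0.31), and next to Ddit3 their highest was Serpinh1, the collagen chaperone Hsp47 (0.57 and 0.02).

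**Figure D4:**
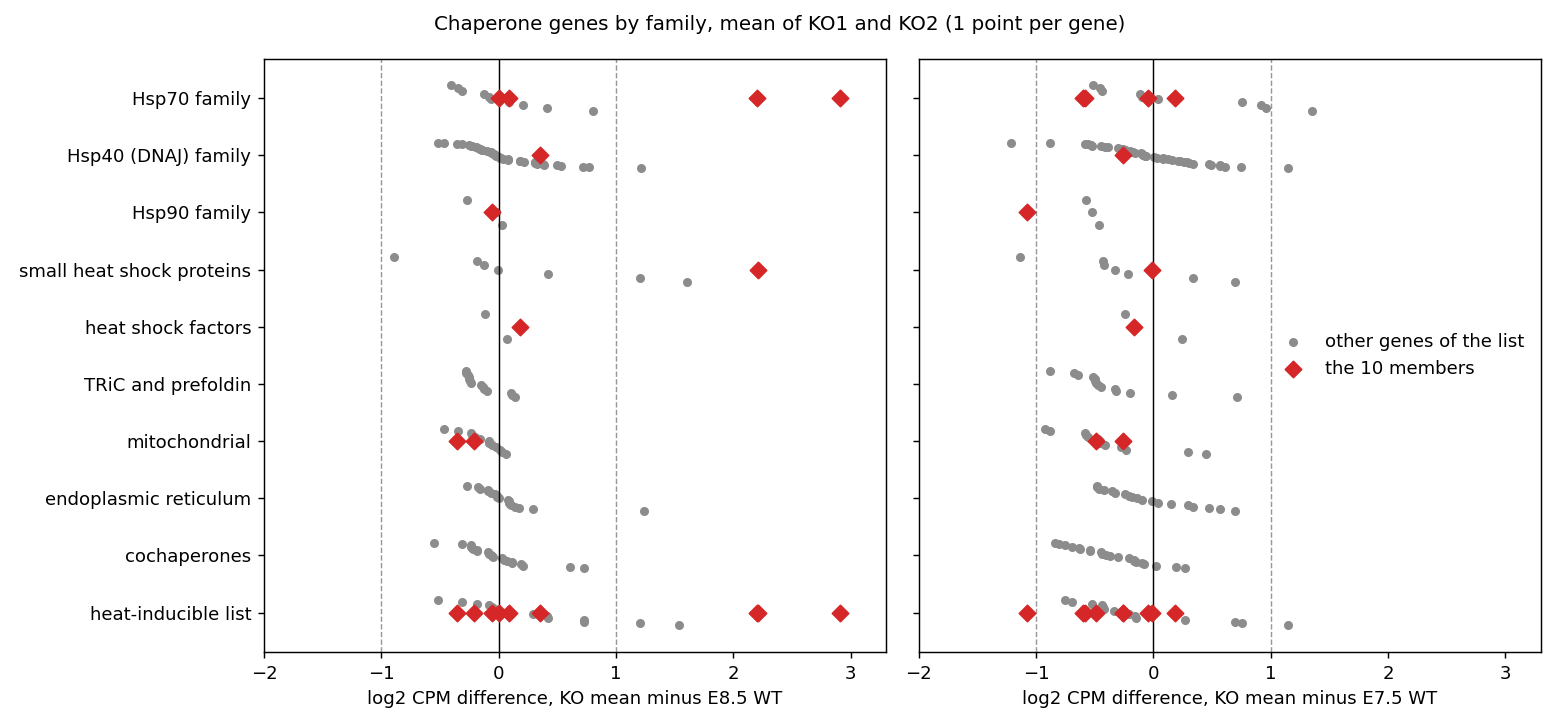
Mean log2 CPM difference of KO1 and KO2 from E8.5 WT (left) and from E7.5 WT (right) for the genes of 10 chaperone lists, with 1 point per gene compared. Red diamonds are the 10 genes chosen, grey points the other genes of each list, and dashed lines mark -1 and 1. A gene may stand in more than 1 list. On the left Hspa1a, Hspa1b and Hspb1 lie furthest to the right, at 2.91, 2.20 and 2.22, and most other genes lie between -1 and 1.

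Against E7.5 WT, 1 of the 125 other network genes was called higher in both KO libraries (0.8%, and 6.91% of all genes). It was Hspa12b, with 195 reads in KO1 and 188 in KO2 over 87 in E7.5 WT. Another 1 was called lower (0.8%, and 2.7% of all genes). It was Dnajc22, chosen after its values were seen, with log2 CPM differences of -1.18 and -1.24. The median log2 CPM difference over the 125 was -0.24 in KO1 and -0.19 in KO2, and over all genes 0.02 and 0.07. It was lowest in the Hsp90 list, at -0.62 and -0.50. The medians were -0.54 and -0.38 in the TRiC and prefoldin list and -0.49 and -0.41 in the mitochondrial list. Between the wild-type stages, 8 of the 125 were lower in E8.5 WT by more than 1 (6.4%, and 7.82% of all genes). By the same margin 5 were higher (4%, and 12.2% of all genes).

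The edgeR quasi-likelihood test, with the spread taken from the KO libraries alone, called 0 of 14393 genes (0%) against E8.5 WT and 0 (0%) against E7.5 WT after Benjamini-Hochberg adjustment over all genes. The smallest adjusted p of any gene in this test was 0.0839 against E8.5 WT and 0.128 against E7.5 WT. Before adjustment, p was under 0.05 for 1052 genes (7.31%) against E8.5 WT and for 3511 (24.4%) against E7.5 WT. Of the 125 other network genes, 6 (4.8%) were under it against E8.5 WT, 5 of them higher in the KO libraries and among them Bag3, Ubb and Unc45a. Against E7.5 WT 37 (29.6%) were, 6 of them higher. With DESeq2 and its adjusted p under 0.05, 14 genes were higher in the KO libraries than E8.5 WT (0.0973%) and 17 lower (0.118%). None of these was among the 125 other network genes. Against E7.5 WT it gave an adjusted p to 11323 genes, of which 420 were higher in the KO libraries (3.71%) and 308 lower (2.72%). The 10 members were chosen with the KO libraries in view, so none of them is given an adjusted p. Of the 116 other network genes with one, 13 were lower (11.2%), among them Hsp90ab1, Hsp90b1 and 4 TRiC subunits, and 1 was higher.

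The genes whose pattern over the 4 libraries was most like that of Hspa1a were sought among 11222 genes that averaged 50 counts or more, by the Euclidean distance over 3 log2 CPM differences (those of E7.5 WT, KO1 and KO2 from E8.5 WT). The nearest was Foxj1, a transcription factor of motile cilia, at a distance of 0.544, with 661, 67, 233 and 568 reads (wild types first, by age, then KO1 and KO2). Rimbp2, Asap3, Pga5 and Trh followed, at distances from 0.664 to 1.04. For Hspb1 the nearest were Serpinb6b, at 0.175 with 112, 25, 44 and 209 reads, and then Elavl3, Capg, Chrd and Vrtn, at distances from 0.246 to 0.467. No other chaperone was among either group of 5, and neither was Hspa1b. Hspa1a itself averaged fewer than 50 counts, with 5 reads in E8.5 WT, so the pattern that its neighbours were matched to is imprecise.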

How the data were processed

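RNA sequencing measured polyadenylated transcripts in 4 libraries of whole embryos, prepared with the KAPA stranded mRNA-seq kit, and groups were taken from the sample labels. The authors deposited 1 table, of raw read counts for each gene, not normalized. Per the submitters' processing notes and the study's methods, reads were trimmed with Cutadapt 2.8, checked with FastQC 0.11.7, aligned to mm10 with HISAT2 2.1.0, handled with SAMtools 1.9 and assigned to exons of the matching strand with featureCounts 2.0.0. Read length is not given in the sources used here. The listed counting settings name no option to keep reads with several positions, so reads that fit several genes may be missing from the counts of close relatives.

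From the counts, TMM factors were computed in edgeR 4.0.16 (R 4.3.3) on the whole table, and were 0.983 and 0.978 for the E7.5 and E8.5 wild types and 1.02 and 1.01 for KO1 and KO2, with totals of 12095555, 12562640, 8198402 and 12008252 counts. Of 18427 genes with a count, 14393 had at least 10 in at least 1 library and were compared. Differences are of log2 CPM with a prior count of 2, and the threshold of 1 follows the study's methods, while the need to pass it in both KO libraries and the prior count were set here. Ratios of 2 libraries were taken without a prior count, with exact Clopper-Pearson 95% intervals of their reads. The floor was 3 counts. Such intervals and floors show counting error alone, because PCR copies of 1 molecule were not marked and reads are not independent. Two-sided edgeR quasi-likelihood tests with Benjamini-Hochberg adjustment used all 4 libraries in 3 groups, and DESeq2 1.42.0 was the alternative. Nothing states that KO1 and KO2 came from separate litters, so p-values measure only the spread between these libraries.

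The 10 genes and the gene lists were chosen with earlier results of these data known. The rule for naming genes took Ddx6, the 10 members, in each list the 2 highest and 2 lowest by mean difference from E8.5 WT and any called in both KO libraries, the 5 nearest in pattern to Hspa1a and to Hspb1, and marker genes that lead a list's sum. Some genes that meet it, at the high and the low end of lists, are not named. Hspa12b, Dnajc22, Mt2, Ascl2, Prl3c1 and the pseudogenes do not follow from this rule and were added with their values known. Gene positions and transcript sequences came from GENCODE M21 (GRCm38) and promoters from RefSeq. Figures were drawn with matplotlib 3.10.9.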

Additional observations from a re-analysis of the deposited data

How the results depend on the processing

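Values were recomputed 236 times under alternative settings, and 199 stayed within the replicate spread or, for counts, within 1.5 times, and none of the called values changed sign. Part of these outcomes was fixed in advance. The value of 1 KO library always lies within the SD of the KO pair, and the filter on low counts does not change a member's value. The 199 is therefore no measure of robustness. The members called higher than E8.5 WT stayed 3 under every setting run except a threshold of 2, which gave 2 (Hspb1 in KO1 fell below it). The filter settings and leaving out 1 KO library could not lower this count. Only the other scalings, the other prior count and the higher threshold could. No paired analysis was possible because each wild-type stage has 1 library without a replicate number. With 5 reads, the size of the Hspa1a difference is limited by depth.

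A minimum of 50 counts gave 1 other network gene higher than E8.5 WT, 259 genes of all higher and 130 lower, 246 lower than E7.5 WT, 693 lower in E8.5 WT than in E7.5 WT, and 454 higher and 435 lower in KO2 than in KO1. A threshold of 2 gave 0 other network genes, 54 higher and 51 lower than E8.5 WT, 132 and 59 against E7.5 WT, 290 lower and 503 higher in E8.5 WT than in E7.5 WT, and 260 and 187 in KO2 against KO1. With 1 KO library left out, so that only the other had to pass, other network genes numbered 4 to 6 higher and 0 to 1 lower than E8.5 WT, and all genes 716 to 1354 higher and 476 to 850 lower, the larger count each time without KO1. Against E7.5 WT there were 1564 to 1893 higher and 584 to 1072 lower, the larger without KO2.

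The mean log2 difference from E8.5 WT of Hspa1a was 3.24 with a prior count of 0.5. That of Hspa1b was 2.26 with plain CPM and 2.26 with that prior count. With plain CPM, which moved the median of all genes to 0.06 in KO1 and 0.05 in KO2, Hsph1 was at 0.066 and Hspa8 at 0.15. Against E7.5 WT, Hspa1b was at 0.15 with DESeq2 size factors and 0.24 with plain CPM, and Hspa8 at -0.55 with plain CPM. DESeq2 called 31 genes against E8.5 WT and 728 against E7.5 WT, and edgeR without the filter on low counts called 8 and also 728. The cause was not tested.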

Other observations

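Of 8 genes of the oxidative and metal stress list compared, Srxn1, which repairs oxidised peroxiredoxins, was above E8.5 WT by more than 1 on the log2 scale in both KO libraries (120 reads in E7.5 WT versus 65 in E8.5 WT, with 100 in KO1 and 207 in KO2), and the medians were 0.31 in KO1 and 0.98 in KO2. The metallothionein gene Mt2 had, in that order, 2432, 790, 715 and 1941 reads, and the lowest, Gclc, an enzyme gene of glutathione synthesis, had 706, 899, 542 and 873.

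Of 20 immediate early genes compared, which many stimuli and tissue handling induce, the medians were 0.23 in KO1 and 0.52 in KO2. Fosb was called higher, with 5, 2, 5 and 33 reads, of which E8.5 WT was under the floor of 3 counts, and Egr2 was called lower, with 7, 35, 5 and 4 reads. Fosl1, an AP-1 gene that trophoblast also expresses, had 42, 2, 2 and 230 reads. The summed level of the list was 411 CPM in E7.5 WT versus 326 in E8.5 WT, with 399 in KO1 and 493 in KO2. The part of handling in the levels of the heat shock genes was not tested.

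Other marker sums went the opposite way from Hspa1a between E8.5 WT and the KO libraries. The erythroid sum was 31.4 CPM in E7.5 WT versus 247 in E8.5 WT, with 2.38 in KO1 and 5.09 in KO2, and the visceral endoderm sum was 6718, 7056, 4157 and 3956 CPM.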
